A study of Mus musculus with 4 samples.

Results

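Ighg1-led cells are the germinal center (GC) B cells in which transcripts of Ighg1, the constant region of the IgG1 heavy chain, outnumbered those of every other heavy chain isotype. They were compared with Ighm-led cells, in which the IgM heavy chain constant region led in the same way. The leading gene was read from the unique molecular identifiers (UMIs, 1 per captured transcript) of Ighm, Ighd, Ighg1, Ighg2b, Ighg2c, Ighg3, Igha and Ighe, and a cell was counted only where 1 gene had the highest count alone. Of 9804 cells that carry a GC subtype in the deposited cell table, 884 were Ighg1-led and 6866 were Ighm-led. The whole series holds 39009 barcodes. Splenic B220+ IgD- cells were taken on day 10 of the response to injected sheep red blood cells, a T cell-dependent antigen, and were sequenced as droplet-based 3' libraries. All mice were 8-week-old females on a C57BL/6J background that carried Cγ1-cre (Cg1Cre+/-), a recombinase expressed from the Ighg1 locus itself upon GC entry. WT mice had no floxed allele, C mice were Crebbp fl/+, K mice were Kmt2d fl/+ and CK mice carried both floxed alleles. The design was to delete 1 copy of the targeted gene in C and K and 1 copy of each in CK. Deletion was not measured in the cells compared here. As the recombinase is expressed from the Ighg1 locus, the leading gene and the extent of deletion cannot be told apart in C, K and CK. There was 1 mouse and 1 library per genotype, so genotype and mouse cannot be told apart and no genotype was tested against another. Since both kinds of cell came from every mouse, the 4 libraries gave 4 pairs for the comparison of Ighg1-led with Ighm-led cells.

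A naive B cell makes IgM and IgD. Class switching replaces the IgM constant region by one lying further downstream in the heavy chain locus, through DNA breaks in the switch regions, and the cell then makes IgG, IgE or IgA with the same variable region. A membrane IgG carries a longer cytoplasmic tail than membrane IgM, and IgG1 switching in the mouse is induced by interleukin 4. In the GC, centroblasts (CB) divide and mutate their receptors in the dark zone, and centrocytes (CC) are selected by antigen and T cell help in the light zone. Before switching, the Ighg1 gene is transcribed from its own upstream promoter. These germline transcripts share their 3' end with switched ones, so a 3' library cannot tell a switched cell from one with germline Ighg1 transcription. The members are therefore named by their leading transcript.

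The genes that set the rule lie on the minus strand of chromosome 12 of GRCm38, Ighm at positions 113418558 to 113422730 and Ighg1 at 113325240 to 113330523. The exon that encodes the membrane anchor is shown for each, because it belongs to the receptor form found on GC B cells; each is exon 5 of 6 of its transcript in the GENCODE annotation. The Ighg1 exon covers chr12:113327442-113327572 (131 bases) and the Ighm exon covers chr12:113418953-113419068 (116 bases). Both are printed 5′ to 3′ on the minus strand, with no base set in capitals.
Ighg1 membrane exon: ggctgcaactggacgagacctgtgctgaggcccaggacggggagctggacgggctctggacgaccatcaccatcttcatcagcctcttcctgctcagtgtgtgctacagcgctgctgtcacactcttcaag
Ighm membrane exon: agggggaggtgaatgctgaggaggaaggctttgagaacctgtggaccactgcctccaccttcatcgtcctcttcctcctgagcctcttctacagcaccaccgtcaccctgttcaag

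The heavy chain counts below chose the members and are given as a description. WT held 61 Ighg1-led and 992 Ighm-led cells, C held 196 and 1280, K held 294 and 1855, and CK held 333 and 2739. Ighg1-led cells had a median of 4 UMIs of their leading gene (interquartile range 3 to 7, highest 54), whereas Ighm-led cells had a median of 15 (8 to 25, highest 359). The Ighg1 lead therefore rested on fewer transcripts. At the edge of the rule, 186 Ighg1-led cells led by a margin of 1 UMI, 93 of them with only 1 Ighg1 UMI, and 303 Ighm-led cells led by a margin of 1. Just outside it, 93 cells had Ighg1 and Ighm tied at the top, among 359 ties of any kind, and 154 cells had no heavy chain constant UMI. At least 1 Ighm UMI was present in 278 of the Ighg1-led cells (31.4%), and at least 1 Ighg1 UMI in 1028 of the Ighm-led cells (15%). A stricter lead, of at least 3 UMIs and at least 3 times the next gene, kept 553 Ighg1-led and 6232 Ighm-led cells. Among the annotated cells that belonged to neither kind, 833 were led by Ighg3, 608 by Ighg2b and 37 by Igha.

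Free RNA in droplets was gauged in barcodes that should lack heavy chain transcripts. The 5399 barcodes outside the annotation with at least 3 UMIs of T cell receptor genes and none of 4 B cell genes were used, at a median of 2268 UMIs against 4193 in annotated cells. Ighg1 led in 1.91% of them and in 9.02% of annotated cells, and at least 1 Ighg1 UMI was seen in 5.09% against 24.2%. No such barcode had more than 3 Ighg1 UMIs, and 0.333% had at least 2. Ighm led in 52.7% of these barcodes and in 6866 of the 9804 annotated cells. An Ighm lead was thus common in barcodes that should lack heavy chain transcripts, and more common there than an Ighg1 lead. Ighm UMIs were seen in 58.0% of these barcodes. Among those led by Ighg1 or Ighm, Ighg1 made up 3.50% (95% Clopper-Pearson interval 2.86 to 4.22). It reached 7.81% (5.84 to 10.2) in K and 1.88% to 3.13% in the other libraries. The K library thus had the highest Ighg1 background, and its Ighm-led cells also held an Ighg1 UMI most often, in 20.4% against 11.2% to 14.2% in the other libraries.

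Both kinds of cell carried GC markers. At least 2 of 7 GC marker genes, Bcl6, Fas, S1pr2, Mef2b, Rgs13 and Gcsam among them, were detected in 93.4% to 98.0% of Ighg1-led cells per library. In an equal number of Ighm-led cells per library, drawn at the same subtype mix, the share was 93.9% to 98.4%. Ighm-led cells outside this draw, which include nearly all of those in the prememory subtype, were not counted here. The kinds were also close in quality, with a median of 4264.5 and 4174 UMIs per cell and 4.93% and 4.997% mitochondrial UMIs. Library totals were 33270825 to 39803865 UMIs. The annotated cells had at most 2499 to 2501 detected genes per library. Scrublet, a doublet caller, marked 0 to 2 Ighg1-led cells and 1.73% to 6.17% of Ighm-led cells per library. Barcode sequences shared between libraries numbered 7 among the members and 143 among all barcodes.

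How common were Ighg1-led cells? In WT, Ighg1 led in 5.79% of the cells led by Ighg1 or Ighm (95% interval 4.46 to 7.38, counting error only). C had 13.3% (11.6 to 15.1), K had 13.7% (12.3 to 15.2) and CK had 10.8% (9.76 to 11.99). WT was thus the lowest of the 4 libraries and its interval did not meet the others, but with 1 mouse per genotype this difference has no replicate check. The background share in K was itself 7.81%. With the stricter lead, the shares in C, K and CK were 9.38%, 10.4% and 7.18% and that in WT 4.69%. When each cell was thinned to 1500 UMIs, WT had 5.33%, C 11.8%, K 11.3% and CK 9.21%.

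Ighg1-led cells were spread over the GC cycle, with prememory cells standing apart. Pooled over libraries, the Ighg1 share was 11.6% in early CB (62 of 536), 11.3% in CB (201 of 1776), 14.2% in cells in transition between CB and CC (405 of 2851, interval 12.9 to 15.5) and 10.5% in CC (209 of 1998, 9.15 to 11.9). Recycling cells had 6 of 63. Among prememory cells, GC B cells placed at the exit toward memory, 1 of 526 was Ighg1-led (0.190%, 0.00481 to 1.05). That cell was in WT. The other libraries had 0 of 205 in C, 0 of 87 in K and 0 of 102 in CK, which allow shares of up to 1.46%, 3.45% and 2.94% by 3 counts of the total, and 1.78%, 4.15% and 3.55% by the exact two-sided interval. These upper limits cover counting error only.

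**Figure D1:**
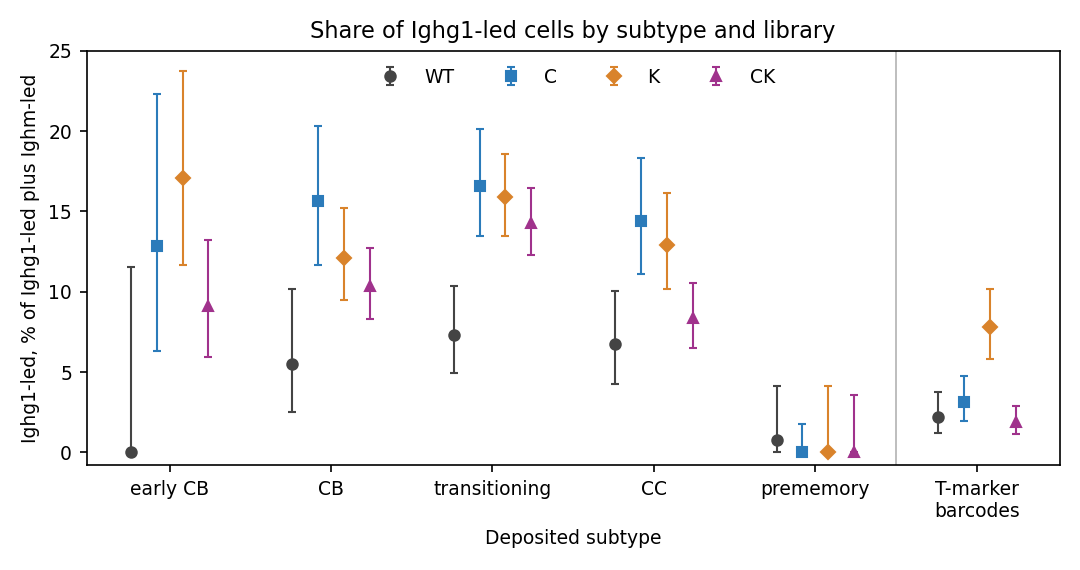
Ighg1-led cells as a percent of Ighg1-led plus Ighm-led cells (vertical axis), by deposited subtype and library; points are shares, bars are exact 95% Clopper-Pearson intervals, and the rightmost group shows barcodes with T cell receptor transcripts. Prememory cells sit at 0.758% in WT and 0 elsewhere, and transitioning cells sit between 7.34% and 16.6%.

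The differences that involve transitioning or prememory cells went the same way in every mouse, although 4 mice are too few for an exact test to reach significance. Transitioning cells exceeded CC by 2.91 ± 2.26 percentage points (mean ± SD over 4 libraries) and were higher in 4 of 4, with 7.34%, 16.6%, 15.9% and 14.3% in WT, C, K and CK against 6.77%, 14.4%, 12.9% and 8.34%. The exact two-sided sign-flip permutation test gave p = 0.13, the smallest that 4 libraries allow, and 0.1875 after adjustment over 6 comparisons. CB lay below transitioning cells by 2.63 ± 1.46 points in all 4 libraries at the same p. CC exceeded prememory cells by 10.4 ± 3.92 points, also in 4 of 4. Between CB and CC the difference was 0.285 ± 1.58 points (exact permutation p = 0.875), and between early CB and CC it was -0.874 ± 4.58 points (exact permutation p = 0.75), both smaller than the spread between libraries.

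Seen from the cells' side, Ighg1-led cells were concentrated in the transitioning subtype. It held 47.5%, 42.9%, 44.9% and 48.0% of Ighg1-led cells in WT, C, K and CK, and 36.9%, 33.0%, 37.7% and 35.01% of Ighm-led cells. The mean difference was 10.2 ± 2.4 points and was positive in 4 of 4 libraries (exact permutation p = 0.13). Prememory cells, which accounted for 3.72% to 16.02% of Ighm-led cells, held at most 1.64% of Ighg1-led cells. With prememory cells left out of both kinds, an alternative chosen after seeing the data, the excess in the transitioning subtype was 6.62 points.

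Ighg1-led cells also lay earlier along the deposited pseudotime, which runs from CB through transitioning cells and CC to prememory cells. For each pair of an Ighg1-led and an Ighm-led cell of a library, the share of pairs in which the Ighg1-led cell ranked later would be 50% with no difference. Over all subtypes the WT, C, K and CK values were 42.0%, 40.4%, 45.6% and 43.6%. Without prememory cells it was 46.7%, 47.1%, 47.6% and 45.1%. Within CC, where no prememory cell enters, the same libraries gave 35.5%, 35.8%, 42.4% and 38.7%, a mean difference from 50 of -11.9 ± 3.21 points. In CB it was 41.8%, 42.2% and 44.9% in C, K and CK (-7.01 ± 1.67 points), and WT had too few cells. Transitioning cells gave -3.24 ± 4.41 points with C above 50%, and early CB gave 0.561 ± 4.75 points, both smaller than the spread between libraries. Of 51 position comparisons, 33 had all 4 libraries and 8 of these went in the same direction in every library, at an exact permutation p of 0.13 and an adjusted p of at least 0.797. Whether immunoglobulin genes entered the label transfer or the pseudotime is not given in the sources used here, so these positions may not be wholly independent of the rule.

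**Figure D2:**
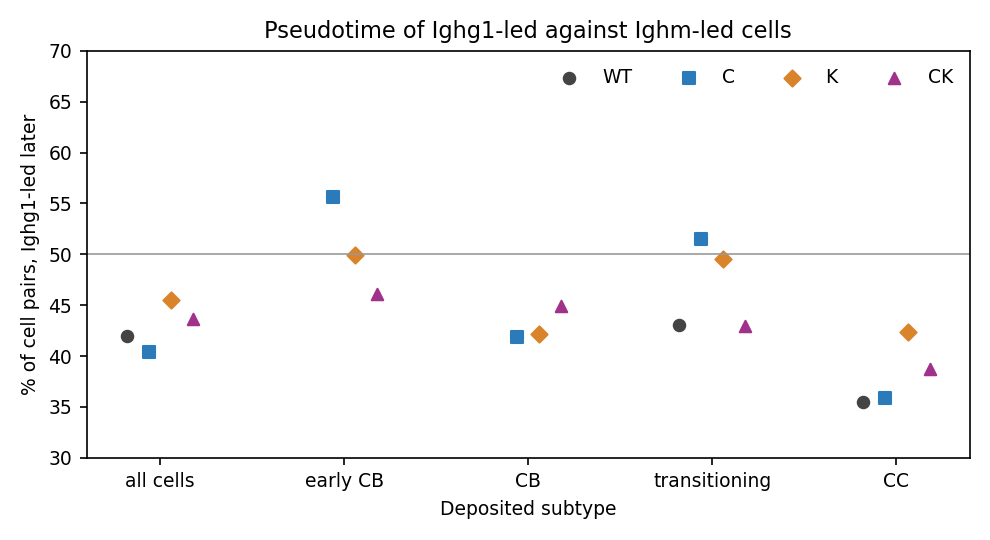
Percent of cell pairs in which the Ighg1-led cell ranks later in pseudotime than the Ighm-led cell of the same library (vertical axis), for all cells and within each subtype; each point is a library and the horizontal line marks 50%. All 4 libraries lie between 35.5% and 42.4% in CC, and WT is not shown in early CB and CB, where it had fewer than 10 Ighg1-led cells.

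Module scores and depth differed little. The deposited light zone score was lower in Ighg1-led cells by 0.009 ± 0.007 and the Myc-upregulated score by 0.004 ± 0.002, in 4 of 4 libraries each. With cells matched on UMIs within each subtype, these differences were 0.00325 and 0.000337, of the opposite sign. That matching also made the subtype mix equal, so depth and subtype mix cannot be told apart in this change. Ighg1-led cells had 215.5 ± 173 more UMIs outside immunoglobulin genes, higher in 4 of 4 libraries, and -0.136 ± 0.327 points of mitochondrial UMIs.

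The genes that separate the kinds were sought with the subtype mix held equal. In each library and subtype the same number of Ighg1-led and Ighm-led cells was drawn, 884 of each in all, and their counts were summed into 8 profiles of 303387 to 1450735 UMIs, leaving out every gene whose symbol starts with Igh, Igk or Igl. Of 7205 genes tested by edgeR's quasi-likelihood test with the library as a block, 50 were higher and 70 lower in Ighg1-led cells at an adjusted p (Benjamini-Hochberg) under 0.05. That is 1.67% of the genes tested, 0.694% upward and 0.972% downward. Of these, 42 and 53 went in the same direction in all 4 libraries, as did 16.3% of all genes tested. The median log2 fold change over all genes was 0 to 2 decimals. The calls were sensitive to the method and to single libraries. DESeq2 called 17 (7 higher, 10 lower; 0.236% of genes tested), all among the 120. Leaving out WT, C, K or CK gave 151, 56, 62 and 24 calls, and 19 genes passed with every one of the libraries left out. A second random draw of Ighm-led cells gave 133 calls, 90 of them shared. Matching on subtype left pseudotime within a subtype unmatched. With cells matched on pseudotime too, 46 genes were higher and 54 lower, and 69 of these calls were shared in the same direction. That fit also drew other Ighm-led cells, so the 2 changes cannot be told apart.

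Slpi, a secreted inhibitor of serine proteases, showed the largest increase. Its level in Ighg1-led cells was 175, 229, 169 and 293 CPM (UMIs scaled to the total outside immunoglobulin genes) in WT, C, K and CK, against 16.3, 70.01, 89.96 and 69.99 in Ighm-led cells. Every Ighg1-led value lay above every Ighm-led value. The log2 fold change was 1.61 (SE 0.128, adjusted p = 1.47e-12 by edgeR), or 3.05-fold. The ratio between the kinds was largest in WT, where Ighm-led cells held 5 UMIs of Slpi, and smallest in K. The SE uses a dispersion that draws on all genes and does not show this spread between mice.

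Lmo2, Lpp and Scimp were higher as well. Lmo2, a LIM domain partner of transcription factors that is well known as a GC B cell marker, had 171, 127, 128 and 105 CPM in Ighg1-led and 108, 77.0, 68.5 and 49.2 CPM in Ighm-led cells, higher in each mouse although the WT Ighm-led value exceeded the CK Ighg1-led value. Lpp, a LIM domain protein of cell adhesions, had 270, 212, 150 and 179 against 140, 121, 92.0 and 93.8 CPM, with no overlap. Their log2 fold changes were 0.88 (SE 0.112) and 0.82 (SE 0.0923), with adjusted p = 5.14e-07 and 2.18e-08 by edgeR. Scimp, a transmembrane adaptor in lymphocyte signalling, had 214, 184, 196 and 157 against 104, 142, 136 and 101 CPM, without overlap (log2 fold change 0.57, adjusted p = 7.47e-05 by edgeR). These genes passed with any library left out and by DESeq2.

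Other increases of a similar size were called by edgeR but not by DESeq2, and Tox, Pxdc1 and Sidt2 rested on fewer counts than Lmo2. Tox, a nuclear HMG-box protein known from T cells, had 49.4, 55.7, 31.0 and 45.9 CPM against 39.2, 11.7, 18.0 and 20.8. Its log2 fold change was 1.14 (SE 0.205, adjusted p = 0.000434 by edgeR), and it was not called by DESeq2 or without CK (adjusted p = 0.0842 by edgeR). Lta, which encodes the cytokine lymphotoxin alpha, had 162, 97.8, 92.4 and 65.0 against 104, 66.5, 63.0 and 40.0 CPM. Pxdc1, the lysosomal membrane protein gene Sidt2 and the chloride exchanger gene Clcn3 rose by 0.76, 0.72 and 0.57 on the log2 scale. Each was higher in all 4 libraries, and none of these 4 genes was called by DESeq2.

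Ly6d, Cd72 and Cd38 were lower. Ly6d, a GPI-anchored protein of the B lineage, had 267, 127, 128 and 99.4 CPM in Ighg1-led and 346, 523, 336 and 233 CPM in Ighm-led cells (log2 fold change -1.39, SE 0.104, adjusted p = 3.73e-13 by edgeR). It was lower in each mouse, and the Ighg1-led value of WT exceeded the Ighm-led value of CK. Cd72, an inhibitory coreceptor of the B cell receptor, had 79.1, 34.6, 95.1 and 54.3 CPM against 150, 112, 217 and 126, with no overlap (-1.25, SE 0.109, adjusted p = 2.25e-11 by edgeR). Cd38, an ectoenzyme that is high on resting and memory B cells of the mouse and low in its GC, had 23.1, 19.8, 11.7 and 14.5 against 52.2, 51.3, 36.7 and 35.4 CPM (-1.41, SE 0.202, adjusted p = 7.06e-06 by edgeR). It too did not overlap.

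Zeb2 and Zeb1, a pair of related zinc finger repressors, moved in opposite directions. Zeb2 had 19.8, 16.1, 10.3 and 19.9 CPM in Ighg1-led cells and 58.8, 59.5, 38.8 and 46.1 CPM in Ighm-led cells, a log2 fold change of -1.60 (SE 0.196, adjusted p = 1.95e-07 by edgeR) without overlap. Zeb1 had 26.4, 47.0, 26.2 and 39.0 CPM against 22.8, 17.5, 18.0 and 26.2, a log2 fold change of 0.73 (SE 0.201) at an adjusted p of 0.0465 by edgeR, close to the threshold, and DESeq2 did not call it. Map3k1, a kinase upstream of JNK, had the largest decrease among genes with at least 20 CPM in 1 kind and the same sign in all 4 libraries, at -1.87 (adjusted p = 0.000183 by edgeR), from 3.30, 7.42, 4.14 and 8.41 CPM against 39.2, 38.5, 9.69 and 23.8 CPM. Its Ighg1-led profiles thus lie at a few CPM each. Marcks, a substrate of protein kinase C with no UMI in WT Ighg1-led cells, the translation inhibitor Pdcd4, the exchange factor gene Trio, Fam78a and Ms4a6c fell by 1.36, 1.11, 1.07, 1.06 and 0.90 on the log2 scale. DESeq2 called none of these 5.

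**Figure D3:**
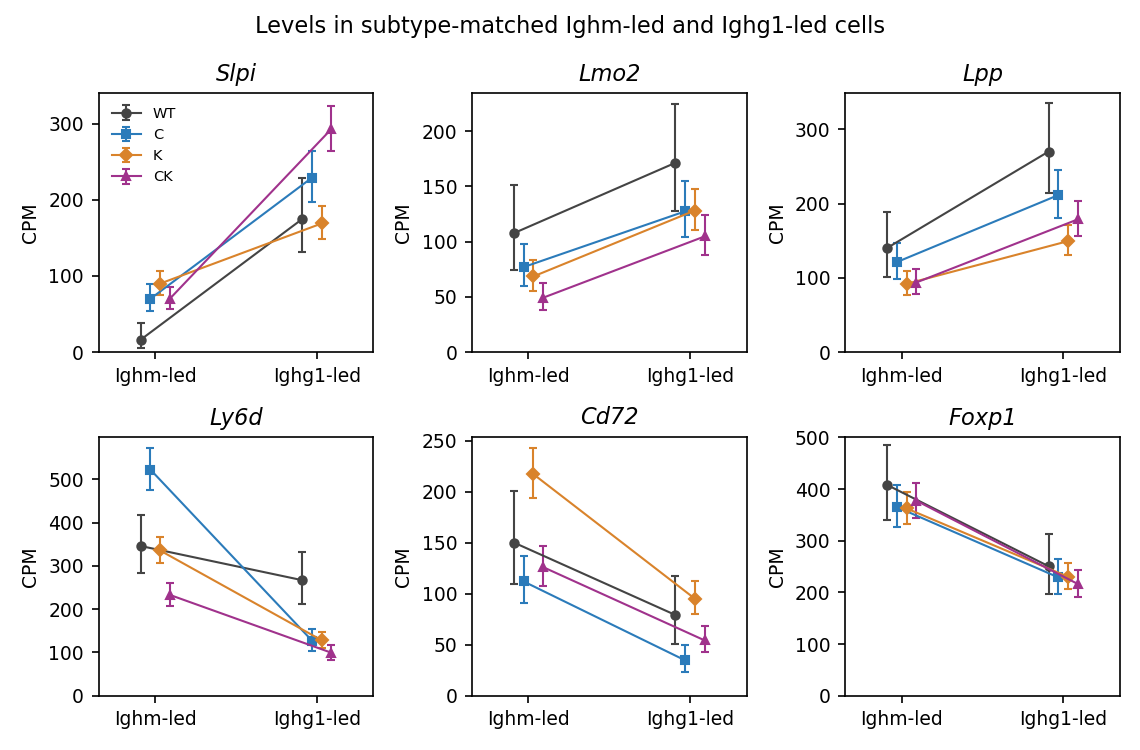
Level of named genes in CPM (linear axis from 0) in the subtype-matched Ighg1-led and Ighm-led cells of each library; points are single profiles, lines join the profiles of a library and bars are exact 95% Poisson intervals, which cover counting error only. In Slpi the 4 Ighg1-led profiles sit between 169 and 293 CPM, above all 4 Ighm-led profiles.

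**Figure D4:**
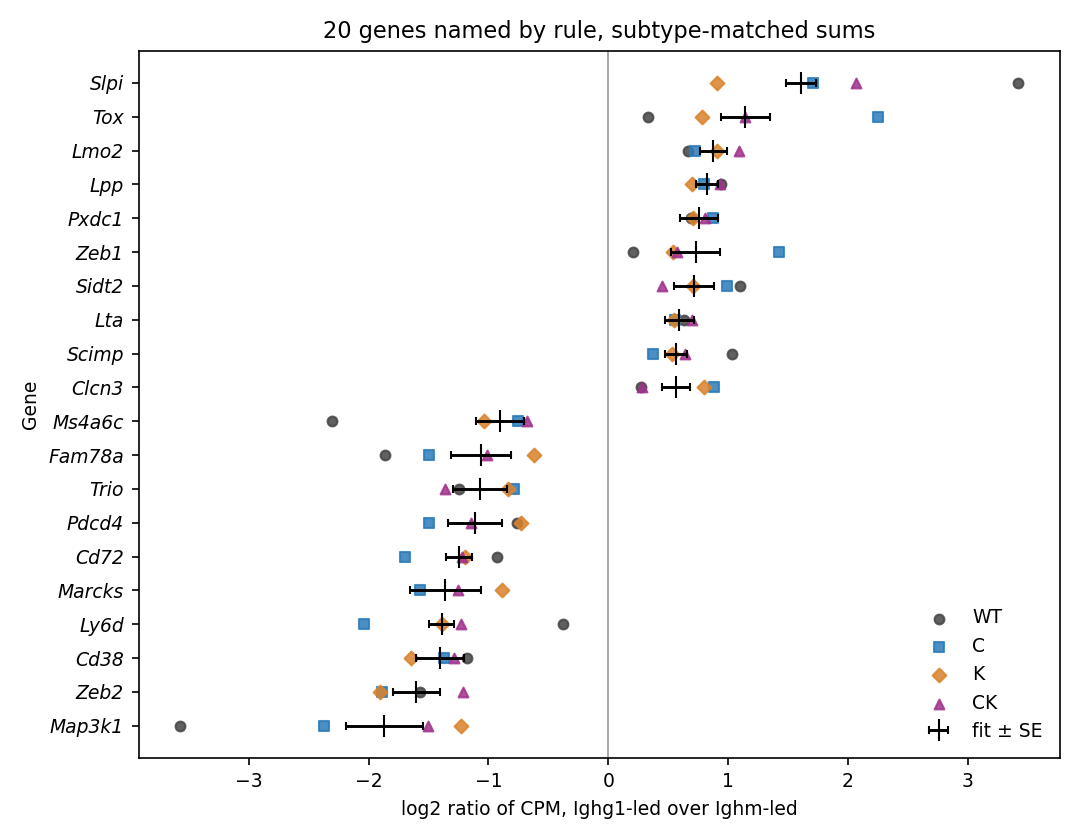
Log2 ratio of Ighg1-led to Ighm-led CPM for the 10 highest and 10 lowest called genes among those with at least 20 CPM in 1 kind and the same sign in all 4 libraries, with 1 point per library, the fitted log2 fold change and its standard error as a bar. That all points of a gene fall on the same side of 0 is fixed by this choice, and Marcks has no WT point because its Ighg1-led profile held 0 UMIs there.

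The difference was then measured inside each subtype with all cells used. In CC, 56 genes were higher and 60 lower in Ighg1-led cells (1.9% of 6096 tested). Transitioning cells gave 39 and 40 (1.07% of 7371) and CB gave 18 and 24 (0.651% of 6453), the latter from C, K and CK alone. Early CB, with 62 Ighg1-led cells in 3 libraries, gave Crip1 higher (log2 fold change 0.42, adjusted p = 1.35e-05 by edgeR) and Cd72 lower (-1.45, adjusted p = 0.00925 by edgeR), or 0.0541% of 3697 tested. The counts follow different cell numbers and were not tested against each other. Genes were selected here after their values were seen: 16 passed in the matched profiles and again in CB, transitioning cells and CC, namely Slpi, Lmo2, Lpp, Scimp, Crip1, Basp1, Laptm5 and Anxa2 higher, and Ly6d, Cd72, Foxp1, Ifi27l2a, Cd24a, Lmo4, Cd2 and Cd47 lower. These fits reuse cells of the matched profiles, so the passes are not separate evidence. The log2 fold change of Slpi was 1.71 in CB, 1.49 in transitioning cells and 1.83 in CC. That of Ly6d was -1.60, -1.45 and -1.43, and that of Cd72 -1.12, -1.35 and -1.18. Differences between subtypes were not tested.

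**Figure D5:**
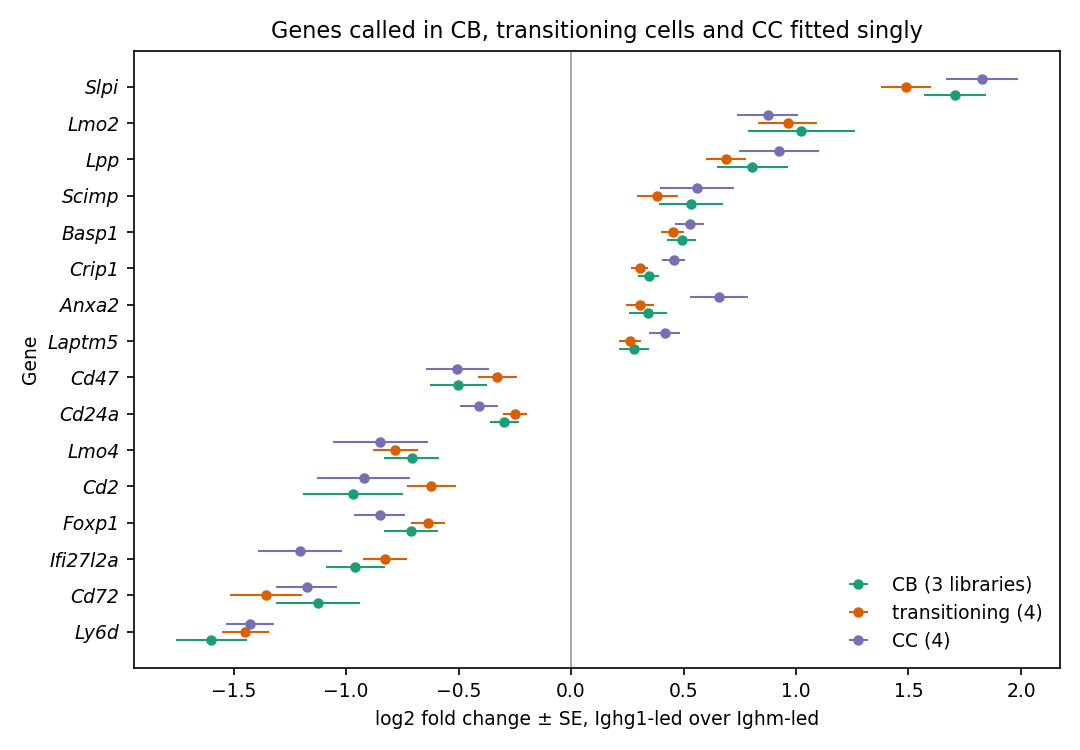
Log2 fold change, Ighg1-led over Ighm-led, of named genes fitted separately in CB, transitioning cells and CC; points are fitted values and bars are standard errors. Slpi lies between 1.49 and 1.83 and Ly6d between -1.60 and -1.43.

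Among these, Foxp1, a forkhead transcription factor of B cells, showed little variation between mice. It had 251, 229, 230 and 216 CPM in Ighg1-led cells and 408, 365, 363 and 378 CPM in Ighm-led cells (log2 fold change -0.72, SE 0.0663, adjusted p = 1.14e-10 by edgeR), and the groups did not overlap. The abundant Crip1, a small LIM protein, had 2225, 1955, 3231 and 2166 against 1626, 1746, 2350 and 1636 CPM (0.37, SE 0.0357, adjusted p = 3.52e-10 by edgeR), higher in each mouse with overlap between mice. Basp1, a membrane-bound signalling protein, had 1025, 1052, 924 and 966 against 875, 681, 711 and 678 CPM (0.46, adjusted p = 9.31e-10 by edgeR), again without overlap. Fcmr, the Fc receptor for IgM, was also singled out after its values were seen. It had 194, 269, 312 and 215 CPM in Ighg1-led cells against 457, 449, 408 and 291 CPM in Ighm-led cells (-0.57, SE 0.0739, adjusted p = 8.11e-07 by edgeR). It was lower in each mouse, and the K Ighg1-led value exceeded the CK Ighm-led value.

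The promoters of Slpi and Cd72 are shown because these genes were called in opposite directions in every one of the fits above except Slpi in early CB. Each window runs from 250 bases before to 50 bases after the transcription start in RefSeq (GRCm38.p6), on the minus strand, at chr2:164356458-164356757 for Slpi and chr4:43454577-43454876 for Cd72. Capitals mark CAGGTG or its reverse complement, the E-box known to bind Zeb1 and Zeb2.
Slpi promoter: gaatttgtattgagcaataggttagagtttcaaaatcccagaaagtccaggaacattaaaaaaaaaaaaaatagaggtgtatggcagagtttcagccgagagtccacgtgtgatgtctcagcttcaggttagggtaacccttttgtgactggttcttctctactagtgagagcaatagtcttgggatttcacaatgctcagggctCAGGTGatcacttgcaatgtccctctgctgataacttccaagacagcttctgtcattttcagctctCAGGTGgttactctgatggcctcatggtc
Cd72 promoter: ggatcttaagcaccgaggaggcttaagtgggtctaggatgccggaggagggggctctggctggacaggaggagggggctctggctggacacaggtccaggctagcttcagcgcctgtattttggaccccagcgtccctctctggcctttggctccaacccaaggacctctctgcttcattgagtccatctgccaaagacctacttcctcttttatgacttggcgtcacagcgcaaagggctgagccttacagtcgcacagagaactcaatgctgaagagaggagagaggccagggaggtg
The letters occur 2 times in the Slpi window and not in that of Cd72. They occur in 5413 of all 27025 promoter windows (20.03%), so a match is common and says nothing of binding here. Of the called genes, 39 of the 50 higher and 54 of the 70 lower have a window in the table, under 80% of each, so a share over them would be void and is not given.

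The class switching and hypermutation machinery was expressed in both kinds. Of 25 genes listed and tested, 2 rose, Hmces among them, and none fell, with a median log2 fold change of 0.11 against 0 to 2 decimals over all genes. Over all genes tested, 0.694% rose and 0.972% fell. In this and the following lists the calls are given as counts and were not tested against these shares. Hmces, which shields abasic sites in DNA, was higher in 4 of 4 libraries by 0.19 (adjusted p = 0.023 by edgeR). DESeq2 did not call it.

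In B cell receptor signalling, 1 of 30 genes rose and 3 fell, with a median of -0.03. The adaptor Grb2 rose by 0.21 (adjusted p = 0.0135 by edgeR). Besides Cd72, the receptor's signalling chains were slightly lower. Cd79a had 3240, 2886, 3263 and 2545 CPM against 3666, 3142, 3425 and 2817, and Cd79b had 2489, 2588, 2816 and 2547 against 2801, 3013, 3010 and 2820 CPM. They fell by 0.13 (adjusted p = 0.0085 by edgeR) and 0.16 (adjusted p = 0.000989 by edgeR) on the log2 scale, lower in 4 of 4 libraries each. The summed CPM of 4 B cell markers that include them was 6871 to 7812 in Ighg1-led and 7365 to 8702 in Ighm-led cells.

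Of 14 measured genes of the interleukin 4 and interleukin 21 response, only the kinase gene Pim1 passed, at -0.32 (adjusted p = 0.0155 by edgeR). The receptor gene Il4ra, at 39.7 to 59.3 CPM in Ighg1-led and 39.2 to 62.0 CPM in Ighm-led cells, had a log2 fold change of 0.02 (SE 0.148). Fcer2a, an interleukin 4 target that encodes CD23, had 0.03 (SE 0.134). Batf, a transcription factor of switching B cells, had -0.62 (SE 0.271, adjusted p = 0.427 by edgeR).

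Genes of resting and memory B cells were the list with the most decreases. Of 25 listed, 15 could be tested; none rose and 6 fell (Plac8, Cd38, Cd55, Lmo4, Klf2 and Btg2), at a list median of -0.42. Its median was -0.34 in CB, -0.24 in transitioning cells and -0.45 in CC. Plac8, which is high in marginal zone and memory B cells, had 19.8, 13.6, 10.3 and 3.06 CPM against 0, 61.8, 15.9 and 28.5 CPM, so WT went the other way. Cd55, a complement regulator, fell by 0.81 in 4 of 4 libraries (adjusted p = 0.0406 by edgeR). Klf2, a transcription factor of quiescent lymphocytes, fell by 0.57 (adjusted p = 0.0419 by edgeR) and was higher in WT. The decrease of Klf2 was largest in C, at 56.9 against 153 CPM, with 37.2 against 48.4 in K and 61.9 against 73.1 in CK. With a library left out its log2 fold change ran from -0.741 to -0.193. Only Cd38 of the list was called by DESeq2. Beside these, 7 markers of resting follicular B cells, Cd38 and Klf2 among them, summed to 349 to 570 CPM in Ighg1-led and 389 to 720 CPM in Ighm-led cells, lower in 4 of 4 libraries (exact permutation p = 0.13), and 8 marginal zone markers to 1782 to 2051 and 1769 to 2107 CPM, lower in 3 of 4. The part of such cells in these differences was not tested.

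Zonal and fate programs gave few calls. Of 20 dark zone genes 1 rose and 1, Foxp1, fell, with a median of -0.11. Of 18 measured light zone and T cell help genes, Slamf1 rose (0.48, adjusted p = 0.049 by edgeR), with a median of -0.08. Cd83, a light zone surface marker, had -0.24 (adjusted p = 0.212 by edgeR) in the matched profiles. Myc, at 3.30 to 13.8 CPM in Ighg1-led cells, had -0.19 (SE 0.319). Among 19 GC transcription factors, Mef2b, Id3 and Mef2c rose by 0.27, 0.30 and 0.17, all in 4 of 4 libraries, and Klf2 fell. Bcl6, the master regulator of the GC program, did not pass at 0.01 (SE 0.146). In the plasma cell program 2 of 15 rose. Jchain, which joins polymeric antibodies, had 1210, 1478, 1352 and 1435 CPM in Ighg1-led and 1048, 1312, 1170 and 1089 CPM in Ighm-led cells (0.25, SE 0.0384, adjusted p = 1.93e-05 by edgeR), and Herpud1, of the endoplasmic reticulum stress response, rose by 0.38. The plasma cell regulators Irf4 and Prdm1 had at most 6 UMIs in any profile and were not tested.

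The remaining lists were close to level. None of 9 positioning genes passed, and S1pr2, a receptor that confines B cells to the GC, had 0.28 (adjusted p = 0.114 by edgeR). Of 13 MHC class II genes H2-Ab1 rose by 0.14, while H2-Aa (0.02) and the activator Ciita (0.06) did not pass. No S phase gene of 28 passed (median 0.01), and of 28 G2M genes Cenpa and Hmgb2 fell by 0.41 and 0.17 (median -0.12). Btg2 fell among 8 immediate early genes. Of 81 cytosolic ribosomal protein genes 2 fell, Rpl39 and Rpl12, by 0.13 and 0.14. A value below 0 was found in 73 of the 81, with a median of -0.05 against 0 to 2 decimals over all genes tested. None of the 13 mitochondrially encoded genes passed.

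The targeted genes did not pass the test between the kinds. Crebbp had 69.2, 39.6, 42.7 and 45.1 CPM in Ighg1-led cells of WT, C, K and CK and 52.2, 44.3, 37.4 and 43.1 CPM in Ighm-led cells, with a log2 fold change of 0.10 (SE 0.153, adjusted p = 0.911 by edgeR). Kmt2d had 19.8, 30.9, 7.58 and 9.94 against 16.3, 17.5, 9.69 and 12.3 CPM, with 0.15 (SE 0.301, adjusted p = 0.932 by edgeR). Of 11 measured genes in the list with their relatives none passed, at a median of 0.10. Reads from the 3' end of a floxed gene need not report the deletion. A p that misses the threshold does not show that the levels are alike.

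Markers of other lineages were low in both kinds. The 9 T cell markers summed to 85.7 to 142 CPM in Ighg1-led and 89.8 to 163 CPM in Ighm-led cells, higher in 2 of 4 libraries. These sums were mostly Lck, which had a log2 fold change of -0.38 (adjusted p = 0.188 by edgeR). Trbc2, the other of the 2 markers tested, had 0.65 (adjusted p = 0.527 by edgeR). Its UMIs in WT, C, K and CK were 6, 7, 28 and 17 in Ighg1-led and 2, 4, 14 and 17 in Ighm-led cells. Cd3d, Cd3e and Cd3g were too low to test. They had 14, 17 and 11 UMIs in Ighg1-led against 10, 4 and 8 in Ighm-led cells of K. In CK they had 10, 8 and 11 against 9, 4 and 6. WT, with 2, 1 and 0 against 0, 2 and 3, and C, with 2, 1 and 2 against 4, 0 and 1, were mixed. The part of T cell transcripts in the changes of Tox and Cd2 was not tested. The 7 myeloid markers summed to 3.06 to 12.4 and 6.15 to 13.1 CPM. For natural killer cells the sums were 2.29 to 6.59 and 3.26 to 5.83 CPM, and for erythroid cells 45.9 to 91.6 and 35.4 to 114 CPM. The 7 plasma cell markers summed to 1493 to 1794 and 1345 to 1634 CPM, mostly Jchain, higher in 4 of 4 libraries. The part of plasma cells in the increase of Jchain was not tested.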

How the data were processed

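Raw UMI counts per gene and barcode were deposited by the authors for 4 droplet 3' libraries, made with Cell Ranger (3.0 in the submitters' notes) on mm10, with no normalization. The deposited cell table gives subtype labels transferred with Seurat 4.0, pseudotime and module scores, where a score is a mean above control genes, and a percent of mitochondrial UMIs, computed by the authors. Whether immunoglobulin genes entered the labels is not given in the sources used here. Cells were assigned to their leading heavy chain constant gene, summed per library and kind, and tested with edgeR 4.0.16 (quasi-likelihood test, TMM scaling, filterByExpr, library as block) in R 4.3.3. DESeq2 1.42.0 and other settings were alternatives. Because the library is the only replicate, exact sign-flip permutation tests have a smallest p of 0.13 over 4 libraries and 0.25 over 3. Samples come from separate mice, and the 4 pairs differ in genotype. The permutation tests take the library as the unit. Over 4 libraries their p is 0.13 whenever all differences share a sign, whatever the spread between libraries. The p-values of edgeR, and its SEs, use a dispersion that draws on all genes. They can therefore be smaller than the spread of 1 gene between the 4 pairs would give. Shares carry exact Clopper-Pearson 95% intervals, for counting error only. Doublets were marked with Scrublet in scanpy 1.11.5 and kept. All 4 files were grouped by the labels' genotype. The fit was tested on simulated data in which 200 genes were changed by known folds. The simulated folds were the same in every library, so this test cannot check how the fit handles differences between mice.

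The genes named are the 10 highest and 10 lowest log2 fold changes among called genes with at least 20 CPM in 1 kind and the same sign in all 4 libraries, a fixed list of GC genes, and the 2 to 4 members of smallest p in each of 17 gene lists; others are said to have been chosen after their values were seen. The members and the lists were chosen with earlier results of these data known. Sequences were read from the GENCODE and RefSeq tables of GRCm38, the build of the files. A few members of these lists and their results are not reported here.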

Additional observations from a re-analysis of the deposited data

Results flagged for a closer look

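In WT, 7 of the called genes named above went opposite to C, K and CK, each in 1 library against 3, and these differences were not tested. As the level in Ighg1-led minus that in Ighm-led cells in CPM, WT had 8.12 for Pim1 (165 against 157), while Pim1 was lower in Ighg1-led cells of C (157 against 217), K (194 against 236) and CK (225 against 285). Klf2 was 26.9 CPM higher in WT, at 85.7 against 58.8, and lower in C, at 56.9 against 153. Lmo4 was 56.7 higher in WT (125 against 68.5) and lower in CK (144 against 249). Plac8 was 19.8 higher, with 0 in WT Ighm-led cells, and Btg2 was 24.4 higher, at 158 against 134. In Hmgb2 the WT difference was 116, at 1183 against 1067, whereas CK had 2058 against 2351. The WT difference of H2-Ab1 was -34.0, with 2218 against 2252, and K had 2611 against 2372. WT went opposite to the other 3 libraries in 1003 of all 7205 genes tested (13.9%) and in 21 of the 120 called. WT had 61 Ighg1-led cells, the fewest.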

How the results depend on the processing

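None of the 120 called genes had a fold change of the opposite sign in any of the 18 alternative fits of the matched profiles that tested it, 101 to 120 genes per fit. These fits share profiles or cells with the main fit, which chose the 120 genes, so an unchanged sign is not separate evidence. Among values that had passed no test, dark zone, light zone, Myc-upregulated and S scores changed sign when cells were matched on UMIs within each subtype. This matching also made the subtype mix equal. With a library left out, the share in early CB minus that in CC ran from -2.55 to 1.09 points and that in CB minus CC from -0.292 to 0.807. Matched calls, 50 higher and 70 lower, became 7 and 10 with DESeq2, 25 and 34 with the stricter lead, 163 and 199 without subtype matching, 11 and 21 with cells thinned to 1500 UMIs, and 0 and 0 without the library block by edgeR (165 genes at an unadjusted p under 0.05); leaving out 1 library gave 9 to 62 and 15 to 89. Of the 20 genes chosen by size among those with at least 20 CPM and the same sign in all 4 libraries, the number called was 9 with DESeq2, 0 without the block, 10 with the stricter lead and 8 with thinning, and 9 to 20 with a library left out. Under 17 alternatives other than the fit without the block, 14 genes passed in each. In CB, DESeq2 called 2 and 3, the fit with no filter on low counts 7 higher, and the stricter lead 11 higher; 1 library left out gave 5 to 14 and 17 to 19. In transitioning cells DESeq2 called 11 and 12 and no filter 24 higher; 1 library left out gave 17 to 30 and 18 to 30. In CC DESeq2 called 23 and 13, no filter 21 and 136 and the stricter lead 28 higher; 1 library left out gave 26 to 33 and 34 to 47. In early CB DESeq2 called 0 and 0 (23 genes at an unadjusted p under 0.05), no filter 0 higher, and 1 library left out 0 to 1 and 0 to 2; the stricter lead could not be fitted there, with 2 libraries.

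The shares with the stricter lead of C, K and CK were 9.38%, 10.4% and 7.18%, and with thinning those of K and CK were 11.3% and 9.21%. Pseudotime pairs, as points from 50, were -3.58 over all cells matched on UMIs and -3.36 without prememory cells, -11.1 in CB and -15.5 in CC with the stricter lead, and -15.9 in CC matched on UMIs. The excess in the transitioning subtype was 6.62 points without prememory cells. Matched on UMIs, differences were -0.0102 in dark zone, 0.00325 in light zone, 0.000337 in Myc-upregulated and -0.0336 in S score, with 3.25 genes detected; without prememory cells the first 3 were -0.00659, -0.00151 and -0.000364. Matching on UMIs also made the subtype mix equal here, and the cause of these shifts was not tested. The main fit is paired by mouse through the library block. The 61 Ighg1-led cells of WT and the few Ighg1 UMIs per cell limit what can be detected.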

Other observations

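Cells led by Ighg3 and Ighg2b, the other common IgG transcripts, were set beside the members over CB, transitioning cells and CC without matching. They share the Ighm-led cells and no test was run. Slpi averaged 219 ± 70.4 CPM (SD, n = 4 libraries) in Ighg1-led, 156 ± 35.7 in Ighg2b-led, 106 ± 40.4 in Ighg3-led and 67.1 ± 19.6 in Ighm-led cells. For Ly6d the means were 138 ± 43.5, 119 ± 17.4, 130 ± 38.2 and 353 ± 84.8 CPM in the same order. Cd72 had 67.1 ± 29.4, 80.3 ± 45.2, 88.0 ± 39.6 and 163 ± 42.3 CPM, and Foxp1 had 236 ± 13.0, 278 ± 30.8, 244 ± 28.7 and 384 ± 33.7 CPM.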
